A study of Homo sapiens with 6 samples.

Results

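The TRiC/CCT chaperonin is built from the products of 8 genes, TCP1, CCT2, CCT3, CCT4, CCT5, CCT6A, CCT7 and CCT8, and its mRNAs were followed here through every array probe set annotated to only 1 of these symbols. This gave 25 probe sets of 49293 tested, with 2 for TCP1, 2 for CCT2, 5 for CCT3, 4 for CCT4, 6 for CCT5, 1 for CCT6A, 1 for CCT7 and 4 for CCT8. Another 4 probe sets that a subunit shares with a pseudogene or small nucleolar RNA gene were left out of all counts. The samples were 786-O cells, an established line from a human renal cell carcinoma, carrying by lentivirus either a negative control short hairpin RNA (shNC, 3 arrays) or a short hairpin RNA against ERCC6L (shERCC6L, 3 arrays). ERCC6L encodes a DNA translocase that binds the threads joining sister chromatids in anaphase. The labels do not give the number of hairpins, whether the cells were clones or pools, or whether the replicates were separate cultures, and the p-values below therefore reflect array-to-array spread that could be purely technical. Errors are over n = 3 arrays per group throughout, and in these bulk samples less RNA per cell cannot be told apart from fewer cells of a kind.

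TRiC (TCP-1 ring complex, also CCT) folds newly made cytosolic proteins inside a cavity closed by a lid of its own subunits. It consists of stacked rings in which each of the 8 paralogous subunits holds a fixed place, and ATP binding and hydrolysis drive the closure. The subunits TCP1, CCT4, CCT2 and CCT5 lie next to each other and form the side of the ring with the stronger ATP binding, while CCT7, CCT8, CCT6A and CCT3 form the other side. Actin and tubulin are its best known substrates, and proteins with WD40 propellers, among them CDC20, depend on it as well. The VHL tumour suppressor, whose functional loss marks the 786-O line, is another substrate.

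The deposited values were similar across arrays. Their normalization is not stated, so similar medians and correlations cannot show equal array quality. Median signals lay between 60.02 and 61.54, correlations of log2 values were 0.9986 to 0.999 within groups and 0.9931 to 0.9938 across groups, and the ratio of the 3' to the 5' GAPDH control probe sets was 0.954 to 0.968 in shNC and 0.952 to 0.965 in shERCC6L. ERCC6L itself was at 39.3% of its control signal. Of the renal list 6 of 8 genes were measured. In shERCC6L 2 were higher and 2 lower (limma, adjusted p under 0.05), against 18.2% and 13.4% of all genes. The log2 fold changes were 0.34 for PAX8, 0.42 for LHX1, -0.26 for CDH2 and -0.50 for CDH6, while PAX2 and VIM did not pass. The renal transcription factor genes PAX8 and PAX2 had mean shNC signals of 392.3 and 152.8, and the mesenchymal marker VIM read 14926. Of the other lineages, 5 blood cell genes read 7.31 to 137.7 in shNC, and the highest of them, HBB, was nearly as bright as PAX2. The 5 endothelial genes read 15.65 to 83.69 and the 6 fibroblast genes 11.05 to 74.51. Of the fibroblast genes COL1A1 fell, by 0.38 on the log2 scale on 1 of its 5 probe sets. Summed signals in shNC and shERCC6L were 189.9 to 194.3 and 179.2 to 190.7 for the blood list, 224.2 to 233.4 and 215.8 to 225.9 for the endothelial list, and 169 to 180.4 and 148.1 to 152.2 for the fibroblast list. The part of these signals in the results was not tested.

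The DNA upstream of the gene start is shown for the pair that rose most, CCT2 and CCT3, and for TCP1, the founding subunit. It is also shown for CCT8, on which no probe set passed the test. Each line gives the 160 bases before the annotated start from RefSeq (GRCh38.p14), 5' to 3' on the gene's strand, with matches to the motifs searched in capitals. CCT2 lies at chr12:69585299-69585458 (plus strand), CCT3 at chr1:156338293-156338452 (minus), TCP1 at chr6:159789603-159789762 (minus) and CCT8 at chr21:29073649-29073808 (minus).
CCT2: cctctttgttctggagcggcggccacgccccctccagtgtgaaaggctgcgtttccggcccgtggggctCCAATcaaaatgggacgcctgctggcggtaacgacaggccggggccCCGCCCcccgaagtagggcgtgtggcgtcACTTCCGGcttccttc
CCT3: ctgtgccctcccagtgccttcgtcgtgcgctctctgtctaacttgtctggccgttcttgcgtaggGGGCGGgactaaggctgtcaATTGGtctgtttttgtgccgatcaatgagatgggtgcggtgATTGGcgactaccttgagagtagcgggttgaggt
TCP1: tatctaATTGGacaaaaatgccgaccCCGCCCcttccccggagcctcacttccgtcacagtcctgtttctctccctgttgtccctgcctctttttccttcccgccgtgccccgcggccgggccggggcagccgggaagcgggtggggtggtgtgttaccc
CCT8: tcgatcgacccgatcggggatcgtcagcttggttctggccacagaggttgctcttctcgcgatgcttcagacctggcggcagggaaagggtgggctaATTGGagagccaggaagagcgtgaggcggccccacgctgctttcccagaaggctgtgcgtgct

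The capitals mark the CCAAT box (CCAAT, bound by NF-Y; on the opposite strand it reads as ATTGG), the GC box (GGGCGG, bound by SP1; opposite strand CCGCCC) and the ETS site (CCGGAAGT; opposite strand ACTTCCGG). The CCAAT box occurs 1 time before CCT2, TCP1 and CCT8 and 2 times before CCT3. Windows from 250 bases before to 50 after a start were available for 7 of the 8 genes (9 windows), all but CCT6A. They were searched on both strands. A CCAAT box stood in 4 of the 9 windows (TCP1, CCT2, CCT3 and CCT8), against 34.6% of all 35116 such windows of the table. A GC box was found in 6 of the 9 windows, those of TCP1, CCT2, CCT3, CCT7 and CCT8, against 45% of all windows. The ETS site was in 1 window, of CCT2, against 4.14%. Paired heat shock element units stood head to head (GAANNTTC) in 2 windows, of TCP1 and CCT2, against 6.77% of all windows. They stood tail to tail (TTCNNGAA) in 1 window, of CCT4, against 7.74%. The 3-unit heat shock elements in either order, the E-box CACGTG and the cAMP response element TGACGTCA were in none of the 9 windows, and in 0.49%, 0.49%, 7.26% and 1.85% of all windows. The CCT5 window belongs to an annotated start inside the gene, and the paired units of CCT2 lie in the window of its second annotated start. These matches describe letters, not binding, and a part of the motifs in the mRNA changes was not tested.

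The comparison of shERCC6L with shNC asks how the subunit mRNAs differ when ERCC6L is reduced. On the brightest probe set of each gene, subunit mRNAs were modestly higher in shERCC6L: 6 of the 8 genes passed as higher and 0 as lower (limma, adjusted p under 0.05), where 18.2% of all 18132 genes passed as higher and 13.4% as lower, 31.6% in all. All 8 log2 fold changes were above 0, from 0.06 for CCT8 to 0.36 for CCT2, with a median of 0.14 against -0.01 for all genes. The groups did not overlap, with shERCC6L above, for the same count of 6 genes, against 23.1% of all genes. The brightest probe sets of the 8 genes lie at the 93.2 to 99.3 percentile of signal among genes. Among the 1107 genes within their range of levels 34.4% passed as higher and 20% as lower, with a median of 0.05, and 45.9% were higher without overlap. No test compares the 8 genes with other genes. All changes are on the log2(signal + 16) scale, which for signals as bright as these is close to the plain log2 ratio.

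The number of subunit genes called, 6 in the main fit, changed with a pseudocount of 1 and when single arrays were left out. Leaving out arrays also lowers the power of each test. With probe sets averaged the number was 5, as TCP1 and CCT5 lost the call and CCT4 gained it. With an intensity trend and robust estimation it was 7, with CCT4 added. Over all genes the number called higher was 3302, and 2783 to 3126 with 1 array left out. CCT2 and CCT3 passed under all 15 alternatives run, and they alone passed without shNC replicate 1 and without shNC replicate 3. The count was 3 without shERCC6L replicate 3 or with a pseudocount of 1 (CCT2, CCT3 and CCT6A in each), 4 without shERCC6L replicate 2 and 7 without shNC replicate 2.

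**Figure D1:**
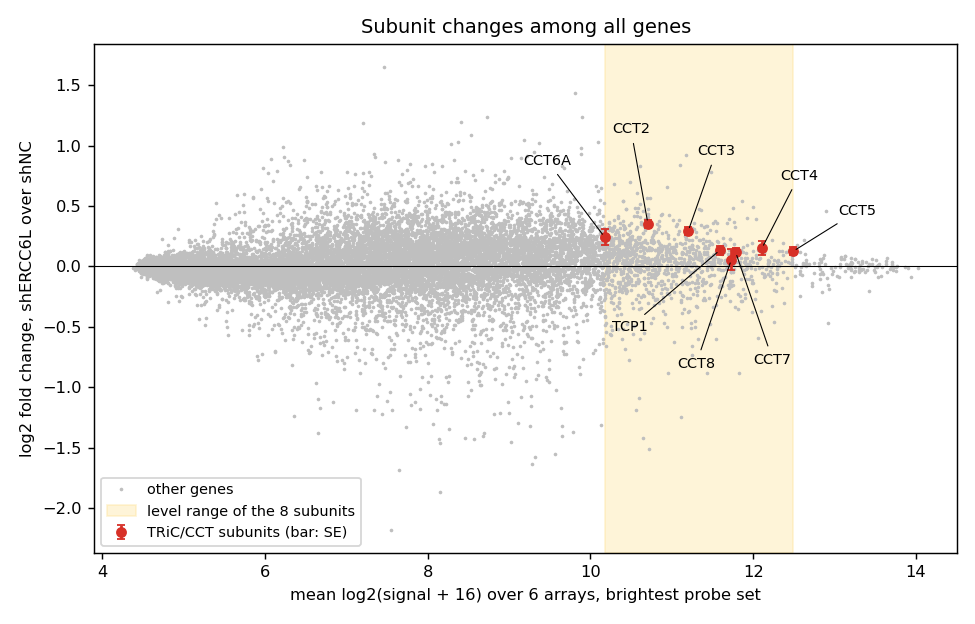
Log2 fold change of shERCC6L over shNC against mean level (log2(signal + 16), 6 arrays) for 18132 genes on their brightest probe sets, with the 8 subunits in red (bars are SE). The subunits sit at the bright end, in the shaded range of levels, between 0.06 (CCT8) and 0.36 (CCT2).

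Across all 25 probe sets, 16 passed as higher and 1 as lower, against 16.8% and 11.9% of all probe sets. The groups did not overlap for these same counts, 16 upward and 1 downward, against 22.3% upward and 41% in either direction of all probe sets. The 16 lay among the 21 probe sets with a mean shNC signal of at least 1000, all 21 of which had a log2 fold change above 0 (median 0.20). Of the 2951 probe sets of the table at that brightness, 25% passed as higher and 22.1% as lower. The 4 dimmer probe sets, which belong to CCT5 (2), TCP1 and CCT8, gave 0 higher and 1 lower.

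**Figure D2:**
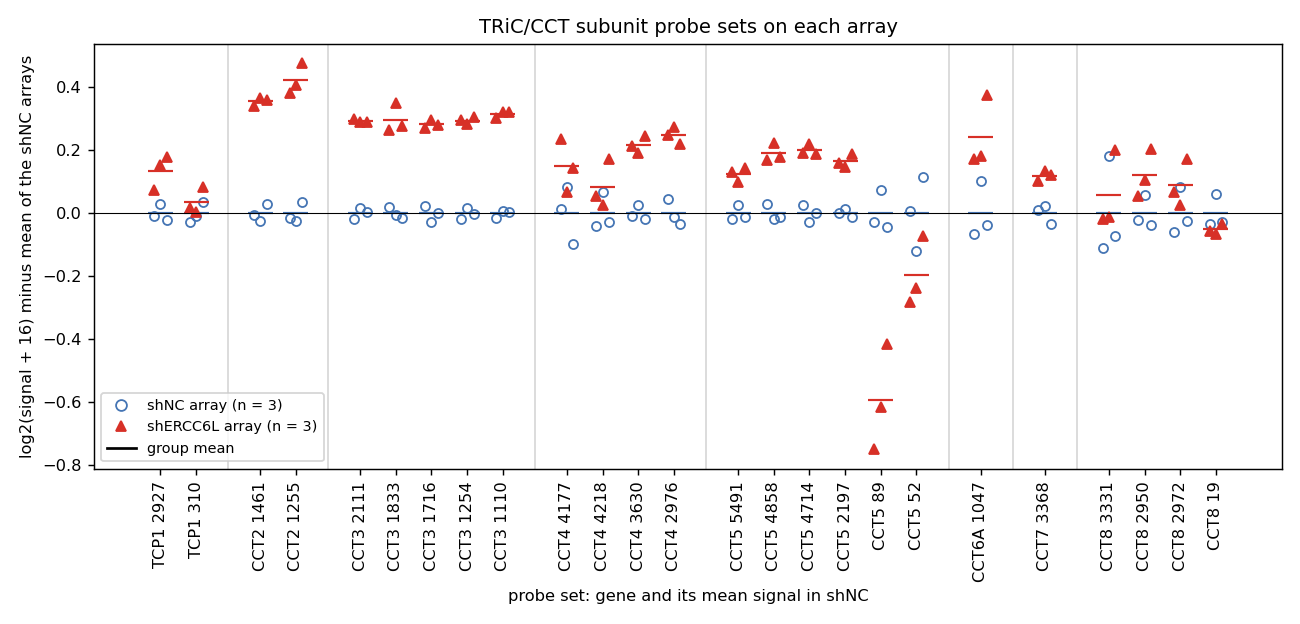
Log2(signal + 16) of each of the 25 subunit probe sets on each array, minus the mean of the 3 shNC arrays; tick labels give the gene and the mean shNC signal, and short lines are group means. All CCT2 and CCT3 probe sets lie above their controls on every shERCC6L array, while the dim CCT5 probe set with a mean of 89 lies below.

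On the side of the ring with stronger ATP binding, CCT2, which also serves as a receptor for the autophagy of protein aggregates, rose most. Its brighter probe set, 11715421_a_at, gave signals of 1455, 1437 and 1492 in shNC and 1856, 1886 and 1879 in shERCC6L. Every shERCC6L array was far above every shNC array, and the change was 0.36 ± 0.03 (log2, SE; limma adjusted p = 7.4e-05). The other CCT2 probe set, 11715420_a_at, went from 1255 ± 28.7 to 1688 ± 58.0 (SD, n = 3), a log2 fold change of 0.42 ± 0.04 (SE), so both probe sets of the gene gave the same direction and call.

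TCP1, the subunit from which the complex takes its name, differed by less. On the brighter probe set, 11722018_a_at, the signals were 2908, 2988 and 2886 in shNC and 3080, 3256 and 3313 in shERCC6L. The groups did not overlap, and the fitted log2 difference was 0.13 ± 0.04 (SE; limma adjusted p = 0.029). The call ended on leaving out shNC replicate 1, shNC replicate 3, shERCC6L replicate 2 or shERCC6L replicate 3, with adjusted p-values of 0.0812, 0.0925, 0.0947 and 0.09, and with a pseudocount of 1 (0.0752). With both probe sets averaged TCP1 was at 0.085 and did not pass (fit over genes, limma adjusted p = 0.0546). The dimmer TCP1 probe set, 11741319_a_at, at 309.8 ± 7.72 in shNC and 317.7 ± 9.77 in shERCC6L (SD, n = 3), did not pass (log2 fold change 0.03, 95% interval -0.05 to 0.12).

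CCT4 gave split readings. Its probe set 11747041_x_at read 3072, 2950 and 2905 in shNC and 3540, 3598 and 3467 in shERCC6L, a log2 fold change of 0.25 ± 0.04 (SE; limma adjusted p = 9.7e-04), and 11749821_x_at rose by 0.22 ± 0.03. Both separated the groups completely. The other pair did not: 11732128_s_at read 4208, 4423 and 3900 in shNC and 4921, 4370 and 4610 in shERCC6L, so that shERCC6L replicate 2 fell below shNC replicate 2, and its log2 fold change was 0.15 ± 0.06 (limma adjusted p = 0.0914). For 11732127_a_at the change was 0.09, with a 95% interval of -0.03 to 0.20. The passing pair carry the suffix x_at, which marks probes with similarity to other transcripts, and s_at marks probes shared by related transcripts. These suffixes also occur on probe sets of CCT3, CCT5, CCT7 and CCT8, among them the brightest of CCT5 and the single probe set of CCT7. The brightest CCT4 probe set missed the threshold while the mean of all 4 passed it, at 0.17 (limma adjusted p = 0.0022), and the brightest also passed without shNC replicate 2 (fit over genes, log2 fold change 0.19, limma adjusted p = 0.0426) and with an intensity trend and robust estimation (0.0203).

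CCT5, in which mutations cause a hereditary sensory neuropathy, had 6 probe sets that went both ways. The 4 bright ones rose, by 0.13 to 0.20 on the log2 scale. Among them 11747067_a_at read 4802, 4626 and 4713 in shNC and 5386, 5492 and 5379 in shERCC6L (0.20 ± 0.03, SE; limma adjusted p = 0.0018), with no overlap between groups. The brightest, 11747068_x_at, rose by 0.13 ± 0.03 (adjusted p = 0.0203), a call that ended without shNC replicate 1 or 3 or shERCC6L replicate 1 or 3, at adjusted p-values of 0.0672, 0.066, 0.0543 and 0.0614, and with a pseudocount of 1 (0.0699).

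The dim CCT5 probe set 11723930_at fell instead. It read 87.01, 94.58 and 85.88 in shNC and 46.49, 52.55 and 62.88 in shERCC6L, with every shERCC6L array below every shNC array. The log2 fold change was -0.59 ± 0.08 (SE; limma adjusted p = 5.7e-04), the largest in size of the 25 probe sets, at a level near the middle of the array (52.7 percentile). It passed under all 14 alternatives run for it, between -0.72 with a pseudocount of 1 and -0.38 with a pseudocount of 64. The other dim CCT5 probe set, 11762828_at, read 51.71, 46.01 and 57 in shNC and 39.5, 41.21 and 48.1 in shERCC6L, which overlap, and its change of -0.20 did not pass (adjusted p = 0.0705), although it did with a replicate block (0.0168), without the dimmest 25% of probe sets (0.048), with array weights (0.0262), without shNC replicate 2 (0.0266) or without shERCC6L replicate 3 (0.0238). With its 6 probe sets averaged, the CCT5 change was -0.018 and did not pass. The positions of these probes in the transcript were not used here.

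On the other side of the ring CCT3 rose, and did so alike on all 5 of its probe sets, by 0.28 to 0.32. The brightest, 11716382_a_at, read 2084, 2134 and 2116 in shNC and 2602, 2588 and 2585 in shERCC6L. The groups were far apart relative to their spread, and the log2 fold change was 0.29 ± 0.03 (SE; limma adjusted p = 1.6e-04). The dimmest of the 5, 11750432_a_at, went from 1110 ± 9.61 to 1386 ± 10.5 (SD, n = 3) and gave 0.32 ± 0.03.

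CCT6A, the widely expressed form of the zeta subunit, read 1000, 1123 and 1019 in shNC and 1180, 1189 and 1361 in shERCC6L on its single probe set, 11715530_a_at. The groups did not overlap, but shNC replicate 2 and shERCC6L replicate 3 stood above the others of their groups. The log2 fold change was 0.24 ± 0.06 (SE; limma adjusted p = 0.0218), and without shNC replicate 1 or 3 it was 0.21 or 0.22 and did not pass (adjusted p = 0.0752 and 0.0737). Its testis-enriched paralog CCT6B, at a mean shNC signal of 51.62, did not pass (0.11 ± 0.06), except without shERCC6L replicate 1 (0.18, limma adjusted p = 0.0232), and was at 0.058 without shERCC6L replicate 3.

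CCT7 read 3392, 3420 and 3291 in shNC and 3615, 3697 and 3666 in shERCC6L on its single probe set, 11737913_s_at. All shERCC6L arrays were higher, by a small margin, with a log2 fold change of 0.12 ± 0.03 (SE; limma adjusted p = 0.0247). With a replicate block the adjusted p was 0.05002, and it was 0.0547 and 0.0895 without shNC replicates 1 and 3, 0.0836 and 0.0602 without shERCC6L replicates 2 and 3, and 0.0805 with a pseudocount of 1, so this call was at the limit of what 3 arrays per group resolve.

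For CCT8, whose raised expression has been reported to increase assembly of the whole complex, 0 of 4 probe sets passed. The brightest, 11757031_a_at, read 3073, 3766 and 3156 in shNC and 3276, 3294 and 3815 in shERCC6L. Here shNC replicate 2 was higher than 2 of the shERCC6L arrays, and the groups overlapped on all 4 probe sets. The log2 fold change of 0.06 had a 95% interval of -0.14 to 0.25. It was 0.15 without shNC replicate 2 and -0.01 without shERCC6L replicate 3. Of the 3 bright probe sets, 11756850_x_at gave the narrowest interval (0.12 ± 0.05, interval 0.01 to 0.23, limma adjusted p = 0.0927), which passed only with an intensity trend and robust estimation (0.0256). The fourth probe set, 11762754_at, differed by -0.05 ± 0.04 (interval -0.14 to 0.03) at a signal of 18.72 ± 1.32 in shNC (SD, n = 3), at the 25.7 percentile of all probe sets.

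Proportions among the subunits were examined next. For each array the log2 level of each subunit, averaged over its probe sets with an shNC signal of at least 1000, was set against the mean of the 8 subunits on that array. Relative to that mean CCT2 was higher by 0.19 in shERCC6L and CCT3 by 0.10, without overlap between the groups. TCP1 was lower by a difference of -0.07, CCT7 by -0.08 and CCT8 by -0.11, also without overlap. Because the mean is taken over the same 8 subunits, a larger rise of some makes others lower by construction. A lower value here is not a fall in signal: on their brightest probe sets TCP1, CCT7 and CCT8 had log2 fold changes of 0.13, 0.12 and 0.06. CCT4, CCT5 and CCT6A overlapped, at -0.03, -0.03 and 0.04. On the brightest probe sets alone CCT2 (0.17) and CCT3 (0.11) were again higher without overlap, whereas TCP1, CCT7 and CCT8 overlapped and CCT5 (-0.06) did not. With 3 arrays per group an exact permutation test (2-sided) cannot go below p = 0.1, so these differences are descriptions. The mean of the 8 itself differed between arrays of a group: shERCC6L replicate 3 was 0.24 above the shNC mean and the other two 0.17 and 0.19.

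**Figure D3:**
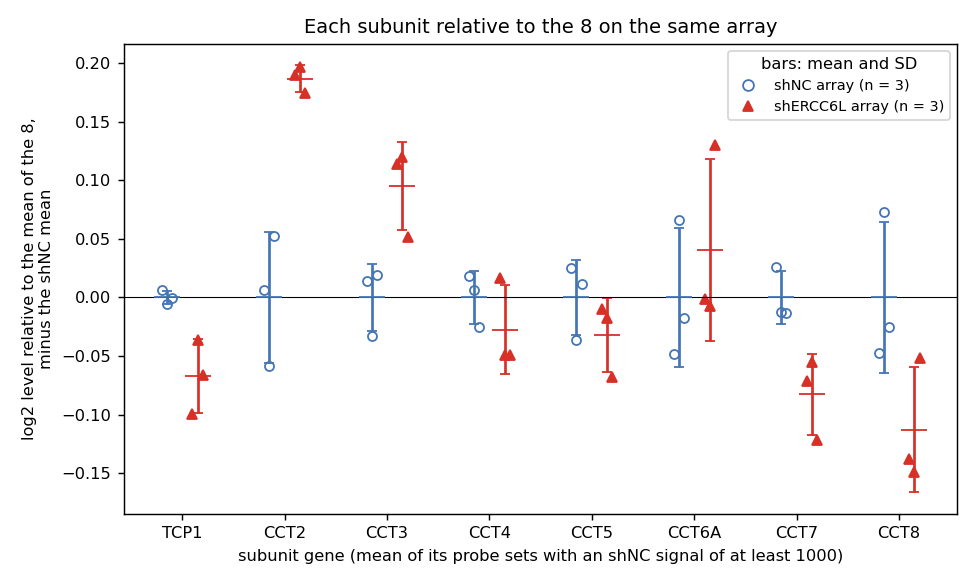
Log2 level of each subunit relative to the mean of the 8 on the same array, shifted so that the shNC mean is 0; points are arrays (n = 3 per group) and bars are mean and SD. CCT2 (0.19) and CCT3 (0.10) lie above their controls, and TCP1, CCT7 and CCT8 below (-0.07, -0.08 and -0.11). The mean includes all 8 subunits, so a lower relative value is not a fall in signal.

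The lists of cofactors and substrates were then examined on the brightest probe set of each gene. They were chosen with earlier results of these data known, among them that heat shock genes were higher. The HSP70 and HSP90 system supplies 11 of the higher genes counted next. Of 78 measured genes in 9 lists, 36 were higher and 3 lower, with a median log2 fold change of 0.11. This total and each list below are to be read against all genes, of which 18.2% passed as higher and 13.4% as lower with a median of -0.01. Of the genes as bright as the subunits, at signals of 1139 to 5735, 34.4% passed as higher and 20% as lower. Many list members were dimmer than that range.

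Prefoldin, the hexamer that hands unfolded actin and tubulin to TRiC, had 3 of 6 subunits higher and 0 lower (median 0.16), against 18.2% and 13.4% of all genes. PFDN6 rose by 0.41 ± 0.03 (log2, SE), PFDN2 by 0.27 ± 0.04 and PFDN1 by 0.19 ± 0.04. PFDN4 and PFDN5, at -0.15 and -0.13, had changes below 0 and did not pass, although PFDN5 did with quantile normalization (-0.16, limma adjusted p = 0.021) and with an intensity trend and robust estimation (0.0379). VBP1, at 0.13 on its brightest probe set, did not pass, but its other probe set rose by 0.24. Among the phosducin-like proteins, which assist TRiC in folding propeller and cytoskeletal proteins, 1 of 4 was higher, near the 18.2% of all genes: PDCL, the cofactor for G protein beta subunits, by 0.24 ± 0.05. PDCL3, at -0.04, did not pass, and PDC and PDCL2 read 12.81 and 8.01 in shNC.

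The prefoldin-like and R2TP list, whose members assemble large complexes together with HSP90, had 5 of 9 genes higher and 0 lower (median 0.26), against 18.2% and 13.4% of all genes, and the count stayed at 5 in all alternatives run. The AAA+ ATPase genes RUVBL1 and RUVBL2 rose by 0.49 ± 0.04 and 0.46 ± 0.03, PDRG1 by 0.39 ± 0.04 and PIH1D1 by 0.26 ± 0.05. For RUVBL2, 3 of 4 probe sets rose and the dim one, at 59.62 in shNC, did not pass. URI1, UXT and POLR2E, at -0.03, 0.00 and 0.00, did not pass.

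Of the HSP70 and HSP90 system, which passes substrates to TRiC, 11 of 12 measured genes were higher and 0 lower, with a median of 0.33, against 18.2% and 13.4% of all genes. CHORDC1, an HSP90 cochaperone, rose by 0.62 ± 0.06 (0.35 with probe sets averaged), HSPA8 by 0.46 ± 0.03, HSP90AA1 by 0.36 ± 0.03 and HSPH1 by 0.35 ± 0.04. HSP90AB1 missed the threshold at 0.10 ± 0.04 (limma adjusted p = 0.0722), but passed in 6 of 15 alternatives, among them quantile normalization (0.0453) and a pseudocount of 64 (0.0279). Earlier results on these arrays had already shown heat shock genes higher, so this count is not independent of the choice of list. The heat shock factor list had 3 measured genes, the factor genes HSF1 and HSF4 and also HSBP1, which encodes a small protein that binds HSF1. Only HSBP1 passed, and it rose by 0.37 ± 0.04, on all 4 of its probe sets. HSF1 itself did not pass, at 0.11 ± 0.04 (limma adjusted p = 0.0734), but did without shERCC6L replicate 3 (0.0354) and with array weights (0.0443). It also passed in the fit with probe sets averaged per gene (0.0415), where the value of its single probe set was unchanged. HSF4 lay lower without overlap, at -0.11 ± 0.04 (limma adjusted p = 0.0683), and passed as lower with array weights (0.034) and without shERCC6L replicate 3 (0.0303). With probe sets averaged it was at -0.027.

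Of 7 other chaperonin genes 5 were higher and 0 lower (median 0.15), against 18.2% and 13.4% of all genes. MKKS, BBS10 and BBS12 encode chaperonin-like proteins that work with TRiC in building the ciliary BBSome, and they rose by 0.25 ± 0.03, 0.15 ± 0.04 and 0.43 ± 0.06. MKKS rose on 2 of its 5 probe sets, and with probe sets averaged MKKS and BBS12 rose by 0.11 and 0.28. Both BBS10 and BBS12 were dim, at 85.66 and 56.46 in shNC. The mitochondrial chaperonin genes HSPE1 and HSPD1 rose by 0.23 ± 0.03 and 0.13 ± 0.04. The list count fell to 3 without shNC replicate 2 or 1, without shERCC6L replicate 2 or 3, and with probe sets averaged, where BBS10 and HSPD1 did not pass, and it was 6 without shERCC6L replicate 1, where CCT6B passed.

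**Figure D4:**
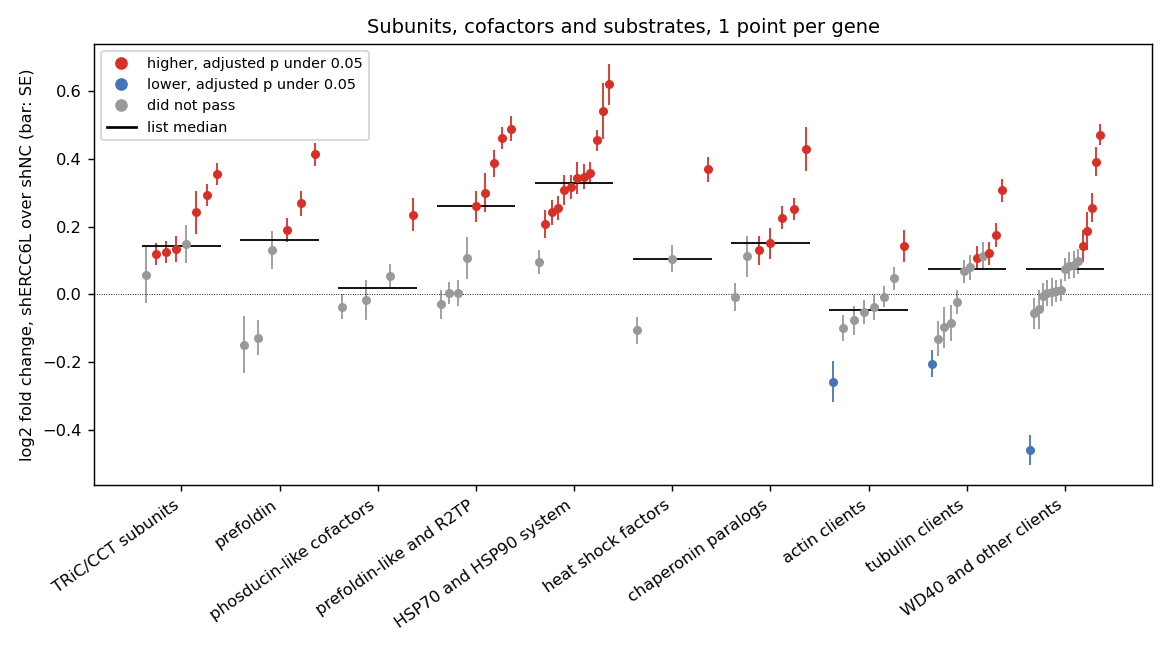
Log2 fold change (shERCC6L over shNC, bars are SE) of the 8 subunits and of each gene in the cofactor and substrate lists, on brightest probe sets; red points passed as higher, blue as lower, grey did not pass, and lines are list medians. Medians run from -0.05 for actins to 0.33 for the HSP70 and HSP90 system.

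Among the substrates of TRiC, the lists had both higher and lower members. Of 8 actin and actin-related genes 1 was higher and 1 lower (median -0.05), against 18.2% and 13.4% of all genes. The number called lower was 2 with quantile normalization or without shERCC6L replicate 1, and 3 with probe sets averaged. ACTA1 passed as lower in each of these (limma adjusted p = 0.0325, 0.0398 and 0.0203). In the main fit ACTA1 lay lower without overlap, at -0.10 ± 0.04, and did not pass (limma adjusted p = 0.0898). The abundant cytoplasmic actins ACTB and ACTG1 did not pass, at -0.04 ± 0.04 and -0.01 ± 0.03. The other probe sets of ACTB read -0.12 and -0.14, and with probe sets averaged ACTB passed as lower (-0.10, limma adjusted p = 0.0396). ACTL6A, a subunit of chromatin remodellers, was at the threshold (0.14, limma adjusted p = 0.0487) and missed it in 10 of 15 alternatives, among them without shNC replicate 1 or 3 and without any of the shERCC6L replicates. The smooth muscle actin gene ACTA2 fell by 0.26 ± 0.06 from a signal of 86.34 on 1 of its 3 probe sets, and by 0.095 with probe sets averaged.

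Of 12 tubulin genes 4 were higher and 1 lower (median 0.07), where 18.2% and 13.4% of all genes passed, and the higher calls were near the share among genes as bright as the subunits (34.4%). TUBG1, the gamma-tubulin of microtubule nucleation, rose by 0.31 ± 0.03, while its paralog TUBG2 fell by 0.20 ± 0.04, on 1 of its 2 probe sets. TUBA1C and TUBB4B rose by 0.18 ± 0.03 and 0.12 ± 0.03, and with probe sets averaged neither passed (0.08 and 0.05). The number of tubulin genes called higher was 2 without shNC replicate 1, without shERCC6L replicate 3, with a pseudocount of 1 or with probe sets averaged. The beta-tubulin gene TUBB did not pass (0.07 ± 0.03).

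Of 17 propeller proteins and other reported substrates 5 were higher and 1 lower (median 0.07), where 18.2% and 13.4% of all genes passed. Among genes as bright as the subunits 34.4% and 20% passed, but most of the 17 were dimmer, down to an shNC signal of 13.58. CDC20, the mitotic activator of the anaphase-promoting complex, rose by 0.47 ± 0.03 and PLK1 by 0.26 ± 0.04. WRAP53, a telomerase holoenzyme protein, rose by 0.39 ± 0.04 on its brighter probe set, while the dim one read -0.11 and did not pass. With probe sets averaged CDC20 and WRAP53 rose by 0.30 and 0.14. GNB4, a G protein beta subunit, fell by 0.46 ± 0.04 on 1 of its 4 probe sets, and by 0.20 with probe sets averaged, whereas GNB1, GNB2 and GNB5 did not pass, at 0.01, -0.06 and -0.01. VHL did not pass (0.09 ± 0.04). The number called higher was 3 without shNC replicate 2 or shERCC6L replicate 3, or with a pseudocount of 1.

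The 8 genes lie on 7 chromosomes (1, 2, 5, 6, 7, 12 and 21), with CCT4 and CCT7 both on chromosome 2, and their neighbours in the RefSeq table (GRCh38.p14) moved in either direction. Next to TCP1, MRPL18, a mitochondrial ribosomal protein gene, rose by 0.19 ± 0.05 and ACAT2, whose interval overlaps TCP1, by 0.12 ± 0.03. PRADC1, beside CCT7, rose by 0.40 ± 0.06. Neighbours of other subunits fell: PSPH, an enzyme of serine synthesis beside CCT6A, by 0.50 ± 0.05, COMMD1, which overlaps CCT4, by 0.38 ± 0.05, CMBL beside CCT5 by 0.31 ± 0.04 and MAP3K7CL beside CCT8 by 0.51 ± 0.05. SUMF2 beside CCT6A, USP16 beside CCT8, FBXO41 beside CCT7 and ATPSCKMT beside CCT5 did not pass on their brightest probe sets, at -0.11, 0.07, 0.08 and 0.03. The neighbours measured at CCT2 and CCT3 (LRRC10, TSACC, VHLL and RHBG) had mean shNC signals of 24.86, 24.61, 11.52 and 38.69 and did not pass.

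Over the 6 arrays the genes whose log2 level followed the mean of the 8 subunits most closely were IDI1 (Pearson r = 0.999), PTBP2 (0.997), GTF2F2 (0.996), HACD2 (0.996) and SPDL1 (0.995), of 9058 genes at or above the median level. As 1617 of these genes had an r above 0.9, and the arrays form 2 groups, the likeness is a description with no test. IDI1, an isomerase of the mevalonate pathway, rose by 0.56 ± 0.07 and the kinetochore gene SPDL1 by 0.21 ± 0.04.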

How the data were processed

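Total RNA of 6 samples was hybridised to single-channel Affymetrix arrays. The deposited values are linear intensities, 1 per probe set and array, made with Affymetrix Expression Console per the submitters' processing notes; the sources used here do not state background correction, normalization or build. No depth or detection call accompanies them, so the number of arrays limits the precision.

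Of 49395 probe sets, 102 controls were set aside; 44988 of the others had 1 gene symbol in the platform annotation, 1832 several and 2473 none. Intensities were transformed to log2(signal + 16), which understates changes of dim probe sets. Groups were compared with limma 3.58.1 (R 4.3.3; lmFit, eBayes, 2-sided, no block, 4 residual degrees of freedom), with Benjamini-Hochberg adjustment over 49293 probe sets or over 18132 genes on their brightest probe sets. The script was tested on simulated data.

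Named were all subunit probe sets, up to 4 called members with the smallest p per list and any against the majority, neighbouring genes and the 5 most similar genes; any other list member was picked once its value was known. Subunits and lists were chosen with earlier results of these data known. List genes without a single-symbol probe set were not analysed here. Alternatives were a replicate block, 2 normalizations, a filter on the dimmest 25%, pseudocounts of 1 and 64, a variance trend, array weights, leaving out each array and averaging probe sets.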

Additional observations from a re-analysis of the deposited data

How the results depend on the processing

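CCT2 and CCT3 kept direction and call under all alternatives, on every probe set. Over 350 readings of single subunit probe sets under an alternative, 18 lost the call, 7 gained it and 0 reversed with a call on either side. The number of subunit genes called higher was 3 with a pseudocount of 1 and 2 to 7 with 1 array left out. It was 5 with probe sets averaged and 7 with an intensity trend and robust estimation. The number of subunit probe sets called lower was 2 with a replicate block, without the dimmest probe sets and with array weights, and 1 to 2 with 1 array left out; the number called higher was 12 to 18. CCT5 reversed from 0.13 to -0.018 with probe sets averaged, which by construction weighs its dim probe sets equally. Cofactor and substrate genes called lower were 6 with quantile normalization, 5 with an intensity trend and robust estimation, 5 with probe sets averaged and 3 to 5 with 1 array left out, against 3; elsewhere the cause was not tested. Same-numbered arrays did not deviate together (correlations 0.22, -0.15 and -0.03), so the numbers were not taken as pairs; the replicate block left 6 subunit genes and 15 subunit probe sets higher. Leaving out arrays also lowers the power of each test.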
